A study of Mus musculus with 4 samples.

Results

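The genes described here are interferon-stimulated genes, interferon-inducible GTPases and genes that prepare peptides for major histocompatibility complex (MHC) class I molecules. They were chosen by name, as 43 gene symbols, and every probe set annotated to a single one of those symbols was taken, which gave 67 probe sets for 41 of the genes among 34958 such probe sets on the array. Of the 43 genes, 37 had a probe set above the filter on low signal, among 11716 genes in all. Signal was measured in the aorta of mice on 4 Affymetrix arrays, with 1 array for each of 4 groups. B6 mice are controls of genotype C57BL/6 apoE-/-, so without apolipoprotein E, and their disease state is given as atherosclerosis. Ath29 mice are congenic mice of strain C57BL/6, titled Ch9 by the submitters, and their disease state is given as resistance. Each strain was kept on chow or on Western diet. The apoE-/- genotype is written in the labels of the control groups only. All mice were weaned onto chow at 3 weeks of age, and the Western diet groups changed diet at 4 weeks of age for 2 weeks. Nothing in the labels says whether an array holds RNA of a single mouse or of a pool. With no replicate in any group, no difference below was tested, and each is a difference between 2 arrays. Where 4 intensities are listed for a gene, the B6 controls on chow and on Western diet come first and the Ath29 mice on chow and on Western diet follow.

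Type I interferons are secreted when cells sense foreign or misplaced nucleic acid. They bind receptors that signal through Janus kinases to the STAT proteins, and a complex that holds Stat2 and Irf9 switches on genes that carry an interferon-stimulated response element. Interferon gamma acts in part through Irf1 and drives the GTPases and the class I pathway, in which the immunoproteasome cuts proteins, the Tap transporter brings the peptides into the endoplasmic reticulum, and tapasin helps load them onto class I chains paired with beta-2-microglobulin. In the atherosclerotic aorta, macrophages and lymphocytes as well as vessel wall cells can make and answer interferon.

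Smooth muscle markers passed the filter in 8 of 8 cases, with Acta2 between 10395 and 11269 intensity units. The labels' extraction text names liver, yet 2 of 7 hepatocyte markers passed and albumin (Alb) read 33.7 to 64.0. Heart muscle set the B6 Western array apart, with a summed intensity of 8436 over 7 heart markers, while B6 chow had 664 and the Ath29 arrays 538 on chow and 370 on Western diet. The 6 brown fat markers summed to 7496, 14409, 11129 and 8862, and the 8 macrophage markers that passed to 4379, 8846, 5221 and 8500. Both Ath29 arrays had a higher ratio of 3' to middle actin signal (10.2 on chow and 7.62 on Western diet) than both B6 arrays (5.10 and 5.63), and a higher mean bioB hybridisation control (544 and 632 against 420 and 453). The Gapdh ratio of 3' to middle signal did not separate the strains, with 9.23 and 9.54 in B6 and 8.87 and 10.6 in Ath29 mice. In the same order of arrays, ratios of 3' to 5' signal were 24.4, 25.4, 31.5 and 28.5 for actin. For Gapdh they were 31.3, 29.0, 22.8 and 28.0, so signal lay mostly at the 3' end of both control transcripts on every array. Fewer cells of a type and less RNA per cell cannot be told apart in whole aorta.

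On Western diet, 28 of the 37 measured members were lower in Ath29 than in B6 aorta, where 49.3% of all genes were lower, and 9 were higher, where 50.7% were. Their median log2 difference was -0.21, against 0.00 for all genes, with a range of -1.34 to 0.31. On chow, 19 members were higher (41% of all genes) and 18 lower (58.9%), with a median of 0.01 against -0.08 for all genes and a range of -0.74 to 0.80. Between diets in B6 mice the median was 0.13 against -0.06 for all genes, with 26 of 37 members higher on Western diet where 43.4% of all genes were and 11 lower where 56.6% were. Between diets in Ath29 mice it was 0.05 against 0.04, with 22 members higher on Western diet where 56.2% of all genes were and 15 lower where 43.8% were. The B6 Western array is shared by the strain difference on Western diet and the diet difference in B6 mice, so these are not separate observations.

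**Figure D1:**
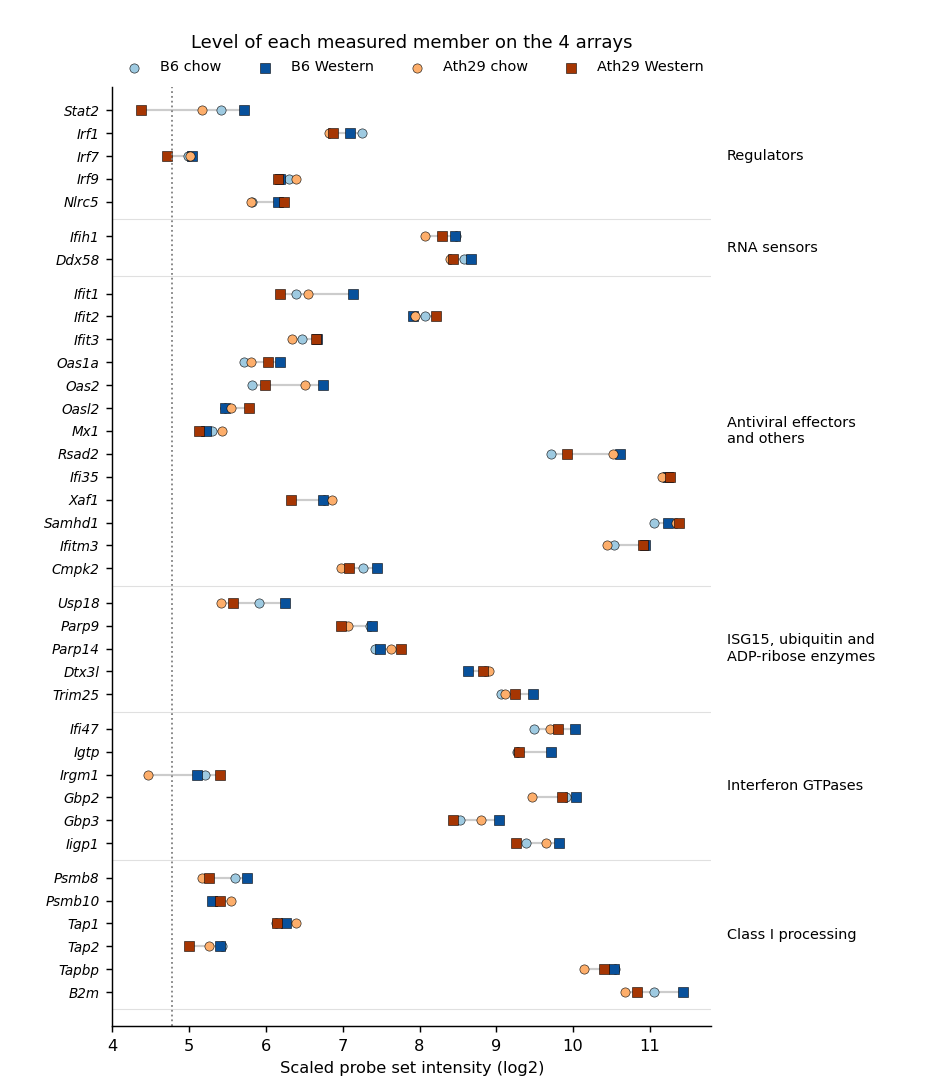
Scaled intensity (log2, x axis) of the 37 measured members on the 4 arrays, grouped by role. Circles are chow and squares Western diet, blue is B6 and orange to brown Ath29, and the dotted line is the filter level of 4.78. Most members differ little between arrays, while Stat2, Oas2, Rsad2, Ifit1 and Irgm1 spread the most.

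Few of these differences were large. At a threshold of 1.5-fold, 7 members were lower in Ath29 mice on Western diet, or 18.9%, beside 7.89% of all genes, and 0 were higher beside 5.62%. With quantile normalization or an equal 75th percentile 5 were lower, beside 7.25% and 7.45% of all genes, since B2m and Gbp3 no longer passed. On chow, 2 members were at least 1.5-fold higher in Ath29 mice (7.28% of all genes) and 1 was lower (9.62%). When the 75th percentile of the arrays was made equal instead, 54.5% of all genes past the threshold on chow were higher in Ath29 mice, against 43.1% with a common median, and the member counts were the same. In B6 mice 3 members were higher on Western diet beside 9.94% of all genes and 0 were lower beside 7.13%, and in Ath29 mice 1 was higher beside 6.03% and 2 were lower beside 4.35%. In all, 8 members passed 1.5-fold in at least 1 of the 4 differences, or 21.6%, while 33.3% of all genes did. These 8 were Stat2, Ifit1, Oas2, Rsad2, Usp18, Irgm1, Gbp3 and B2m. At 2-fold 1 member was left, Stat2, lower in Ath29 mice on Western diet beside 2.03% of all genes. In the other directions 0 members passed 2-fold, where the shares of all genes were 0.845% higher on Western diet and, on chow, 2.17% higher and 1.94% lower. Between diets they were 4.11% higher and 1.17% lower in B6 mice, and 1.32% higher and 0.854% lower in Ath29 mice.

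The B6 Western array most often held a member's highest value. Of the 37 members, 20 had their highest value on B6 Western, or 54.1%, where 26.4% of all genes did. A further 7 were highest on Ath29 Western (21.1% of all genes), 6 on Ath29 chow (17.6%) and 4 on B6 chow (34.9%). Lowest values fell on Ath29 chow for 14 members, on B6 chow and on Ath29 Western for 10 each, and on B6 Western for 3, where the shares of all genes were 31.8%, 22.6%, 18.1% and 27.5%. The B6 Western array also had the highest summed heart muscle, brown fat and macrophage markers (8436, 14409 and 8846), and their part in this order was not tested. With the B6 Western array left out, 12 members were highest on B6 chow (43.4% of all genes), 12 on Ath29 chow (28.8%) and 13 on Ath29 Western (27.8%).

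**Figure D2:**
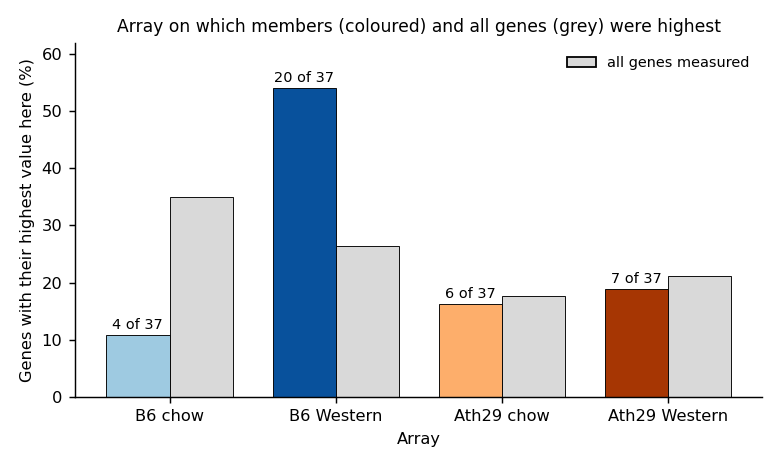
Share of genes (%, y axis) that had their highest value on each of the 4 arrays, for the 37 measured members (coloured bars, with counts) and for all 11716 genes (grey bars). B6 Western held 20 of 37 members against 26.4% of all genes.

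Among antiviral effectors, Rsad2 (viperin, a radical SAM enzyme that makes a chain-terminating nucleotide) varied with strain and diet together. It read 842 on chow and 1569 on Western diet in B6 mice, and 1469 on chow and 967 on Western diet in Ath29 mice. The log2 difference between diets was 0.90 in B6 and -0.60 in Ath29 mice, and that between strains 0.80 on chow and -0.70 on Western diet. The signal was thus high on B6 Western and Ath29 chow and low on the other arrays. Its other probe set above the filter was likewise lowest on B6 chow, read 133 on B6 Western, 146 on Ath29 chow and 92.4 on Ath29 Western, and gave diet differences of 0.83 and -0.66.

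Oas2, an oligoadenylate synthetase that activates RNase L on sensing viral RNA, had the same order of arrays. It read 56.4, 107, 91.1 and 63.4, with diet differences of 0.93 and -0.52 and strain differences of 0.69 and -0.76. Ifit1, which binds viral RNA that lacks host cap methylation, read 84.1, 141, 93.8 and 72.9, so only B6 Western stood above 100 units. Its difference between diets was 0.74 in B6 and -0.36 in Ath29 mice, and its strain difference on Western diet -0.95.

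Other genes of the same families did not have this order of arrays. Oas1a, another synthetase, read 52.5, 72.8, 55.9 and 65.3, higher on Western diet in both strains. Oasl2 read 44.0, 44.3, 46.5 and 54.9 and was highest on Ath29 Western. Ifit2 read 269, 242, 246 and 298 and Ifit3 88.3, 101, 80.6 and 101, so that of the Ifit genes on chromosome 19, Ifit2 was highest on Ath29 Western and Ifit1 and Ifit3 on B6 Western, in Ifit3 with an almost equal value on Ath29 Western. Cmpk2, a nucleotide kinase whose gene lies beside Rsad2 on chromosome 12, read 154, 175, 126 and 136, with both Ath29 arrays below both B6 arrays.

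By the probe set read for each gene, the remaining measured effectors differed by less than 1.5-fold, but other probe sets of Samhd1, Xaf1 and Ifi35 passed it. Ifitm3, a membrane protein that blocks virus entry, read 1481 and 1958 in B6 chow and Western and 1390 and 1921 in Ath29 chow and Western, with near-equal diet differences of 0.40 and 0.47. Samhd1, which degrades deoxynucleotides, read 2126, 2405, 2601 and 2665, with 0.29 between strains on chow. Its other probe sets above the filter gave 0.11, 0.43 and 0.60 for that difference. Xaf1, a pro-apoptotic protein, read 108, 107, 116 and 80.6, with a diet difference of -0.53 in Ath29 mice. For Xaf1 another probe set read 24.9, 27.7, 30.4 and 42.2 and gave 0.48 for that difference, so the direction depends on the probe set. Between strains on Western diet the 2 probe sets gave -0.41 and 0.61. Mx1 lay between 35.1 and 43.0 and Ifi35 between 2282 and 2451. Another Ifi35 probe set read 52.6, 38.5, 33.9 and 36.6, with -0.63 between strains on chow, while a further one gave 0.07. Mx2 read at most 17.2 and Bst2 at most 29.9, and both missed the filter. Ifi44 has no probe set annotated to it alone.

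The interferon GTPases act on the vacuoles of intracellular pathogens, and 6 of 6 were measured. Iigp1 read 669, 900, 805 and 612, and Gbp3 read 368, 524, 447 and 346. Both were thus high on the B6 Western and Ath29 chow arrays, as Rsad2 was. The strain difference on Western diet was -0.56 for Iigp1, with -0.58 from its other probe set, and -0.60 for Gbp3. Ifi47 read 721, 1039, 829 and 895 and Igtp 617, 839, 620 and 627, with diet differences in B6 mice of 0.53 and 0.44. In Ath29 mice those were 0.11 and 0.02. Gbp2 read 961, 1047, 704 and 930 and was lowest on Ath29 chow. Its other probe set read 122, 151, 119 and 125, with Ath29 Western above B6 chow.

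Irgm1, which controls the other GTPases, had another order of arrays. It read 36.9, 34.3, 22.1 and 42.2, with a strain difference of -0.74 on chow and a diet difference of 0.93 in Ath29 mice. Its Ath29 chow value lies below the filter level of 27.5. The median of the 6 GTPases was 0.44 between diets in B6 mice, 0.06 between diets in Ath29 mice, 0.10 between strains on chow and -0.32 between strains on Western diet. Igtp, Irgm1 and Ifi47 are all on chromosome 11.

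**Figure D3:**
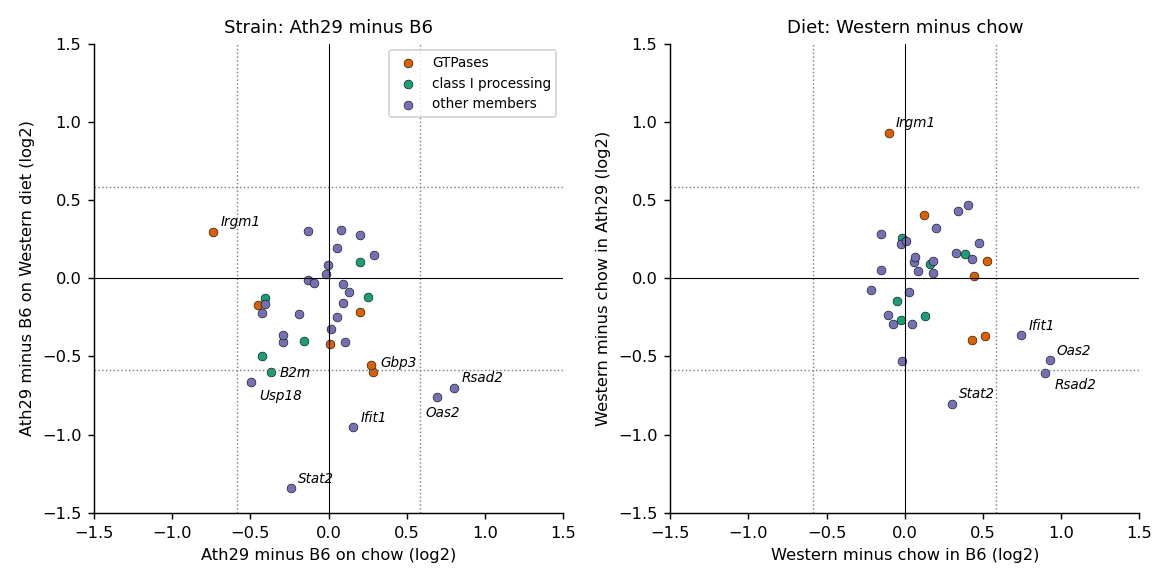
Differences of the 37 members (log2), strain differences on chow (x) against Western diet (y) at left and diet differences in B6 (x) against Ath29 mice (y) at right. The 2 axes of a panel share no array, dotted lines mark 1.5-fold, and members past it in a panel are named. Rsad2 and Oas2 lie at the lower right of both panels.

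In all, 7 members (Irf7, Ifit1, Oas2, Rsad2, Gbp3, Iigp1 and Tap1) had both B6 Western and Ath29 chow above both other arrays, or 18.9%, beside 17.4% of all genes. No minimum margin was asked. The strain difference on chow was 0.02 (log2) in Irf7 and 0.16 in Ifit1, and that on Western diet was -0.12 in Tap1. The opposite arrangement held for 2 members (Ifit2 and Irgm1) beside 24.7% of all genes. The 6 brown fat markers all had the same arrangement as those 7, from Elovl3, a fatty acid elongase, with 83.9, 679, 411 and 144, to Dio2, the deiodinase, with 1326, 1651, 1492 and 1282. Among 3 white fat markers that passed, 3 did, and among 8 macrophage markers 0 did. The part of fat tissue in the members' pattern was not tested.

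**Figure D4:**
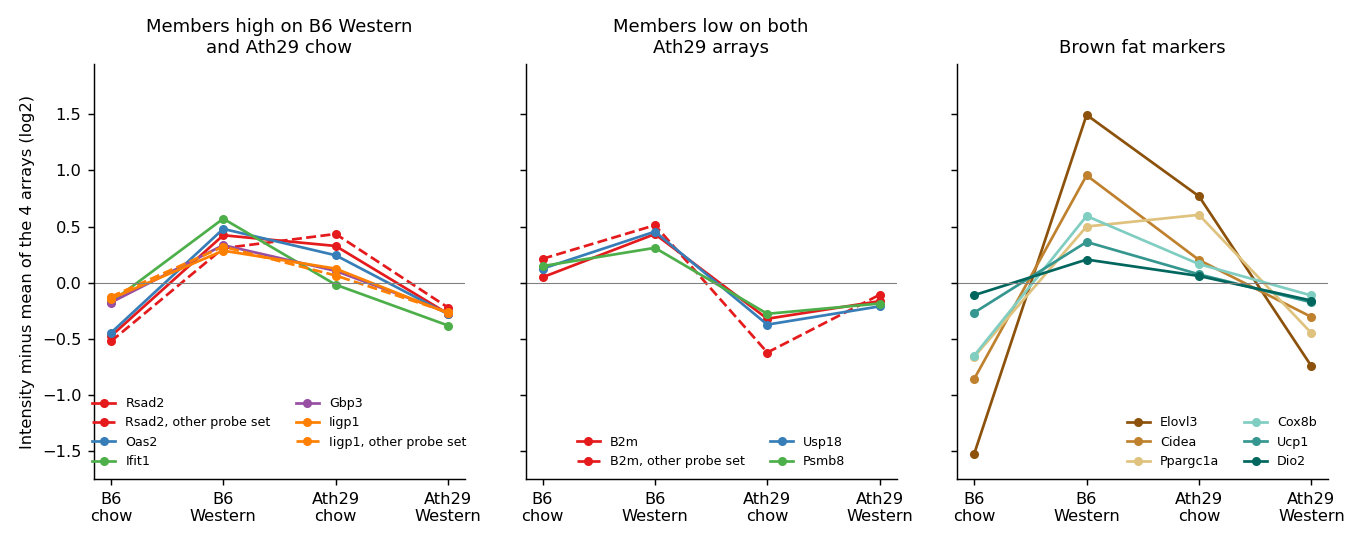
Intensity on each array (x axis) minus the mean of the 4 arrays (log2, y axis). Left, members high on B6 Western and Ath29 chow, middle, members low on both Ath29 arrays, right, 6 brown fat markers, with dashed lines for other probe sets of the same gene. Rsad2 and Oas2 follow the same order of arrays as most of the brown fat markers, with B6 chow lowest and B6 Western highest.

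The promoters of the members that passed 1.5-fold are shown because an interferon-stimulated response element is the sequence through which the complex with Stat2 and Irf9 acts. Of the 8, 6 are in the RefSeq promoter table (build GRCm38.p6). For each of these, the 250 bases before 1 start are printed 5' to 3' on the strand of the gene. Matches to GAAA, any 2 bases and GAAA on either strand are in capitals, and only windows with a match were printed. The windows are chr12:26456453-26456702 on the minus strand for Rsad2, chr19:34640639-34640888 on the plus strand for Ifit1 and chr3:142559794-142560043 on the plus strand for Gbp3. For Stat2 it is chr10:128270248-128270497 and for B2m chr2:122147437-122147686, both on the plus strand, and for Irgm1 chr11:48871421-48871670 on the minus strand.
Rsad2: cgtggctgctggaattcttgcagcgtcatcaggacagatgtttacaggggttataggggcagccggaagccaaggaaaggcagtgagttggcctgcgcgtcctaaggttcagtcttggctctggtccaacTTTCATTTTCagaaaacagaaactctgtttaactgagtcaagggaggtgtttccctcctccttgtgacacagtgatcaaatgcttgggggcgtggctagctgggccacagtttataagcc
Ifit1: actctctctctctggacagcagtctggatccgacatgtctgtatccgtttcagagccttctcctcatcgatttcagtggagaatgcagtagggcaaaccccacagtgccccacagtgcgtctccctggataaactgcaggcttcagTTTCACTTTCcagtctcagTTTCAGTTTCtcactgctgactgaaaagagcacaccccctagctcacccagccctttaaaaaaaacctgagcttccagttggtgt
Gbp3: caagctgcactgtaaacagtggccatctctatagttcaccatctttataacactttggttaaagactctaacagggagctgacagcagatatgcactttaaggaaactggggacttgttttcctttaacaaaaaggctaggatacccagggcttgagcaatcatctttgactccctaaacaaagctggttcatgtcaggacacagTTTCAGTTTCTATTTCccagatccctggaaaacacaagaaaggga
Irgm1: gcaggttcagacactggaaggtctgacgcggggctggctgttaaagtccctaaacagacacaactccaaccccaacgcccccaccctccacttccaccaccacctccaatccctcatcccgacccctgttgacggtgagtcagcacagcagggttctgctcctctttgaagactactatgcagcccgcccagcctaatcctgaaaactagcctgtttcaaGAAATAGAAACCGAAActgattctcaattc
Stat2: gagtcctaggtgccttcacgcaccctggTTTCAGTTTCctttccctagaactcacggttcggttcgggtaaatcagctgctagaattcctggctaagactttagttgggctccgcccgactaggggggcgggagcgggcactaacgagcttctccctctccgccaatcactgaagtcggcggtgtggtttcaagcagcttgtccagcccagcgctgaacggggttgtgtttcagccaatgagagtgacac
B2m: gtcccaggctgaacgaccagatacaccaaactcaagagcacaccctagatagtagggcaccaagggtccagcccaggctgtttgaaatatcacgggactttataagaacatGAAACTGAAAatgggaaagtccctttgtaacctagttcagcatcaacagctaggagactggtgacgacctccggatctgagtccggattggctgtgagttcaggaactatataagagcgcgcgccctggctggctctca
The match lies at -120 to -111 from the start in Rsad2, at -139 to -130 in B2m and at -222 to -213 in Stat2. Ifit1 has 2 matches, at -104 to -95 and -85 to -76, and Irgm1 and Gbp3 have 2 overlapping matches each, from -30 and from -45.

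All 6 printed windows hold a match, since only windows with a match were printed. The window of another Gbp3 start, chr3:142560106-142560355, holds none. A gene was counted when any of its windows held a match. Among the 23 other measured members with a promoter in the table, 4 did (Ifit3, Oas1a, Igtp and Gbp2). Over all 27025 genes in the table the share is 3.46%, and over the 43 members it is 12 of 33, or 36.4%. The members were named as interferon-stimulated genes, so a share above that of all genes is no result of these arrays. The motif TTCNNNGAA, the core of the gamma-activated site, was found in 0 of the 6 genes, in 6 of the 23 and in 8.13% of all genes. On chow the 6 genes did not share a direction, since Rsad2 was higher in Ath29 mice while Irgm1 and B2m were lower. On Western diet 5 of the 6 were at least 1.5-fold lower in Ath29 mice and Irgm1 was not, at 0.30, but passing 1.5-fold is what chose these 6.

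Among regulators, Stat2 had the largest single difference of the members. It read 42.6, 52.5, 36.1 and 20.7, a strain difference of -1.34 on Western diet and a diet difference of -0.80 in Ath29 mice. These rest on a value below the filter level. A further Stat2 probe set, which missed the filter, read 13.5, 30.7, 25.5 and 26.7 and does not show the low value on Ath29 Western.

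The other regulators lay closer together. Irf1, the interferon gamma response factor, read 152, 137, 113 and 117, with both Ath29 arrays below both B6 arrays. Irf9, the DNA-binding partner of Stat2, read 78.8, 73.0, 84.0 and 71.2. Irf7, which amplifies type I interferon production, read 31.7, 32.8, 32.1 and 26.2, near the filter level throughout. Nlrc5, the transactivator of class I genes, read 56.3 and 71.3 in B6 chow and Western and 56.1 and 75.6 in Ath29 chow and Western, so that diet differences were 0.34 and 0.43 and strain differences -0.01 and 0.08. Of the RNA sensors, Ifih1 (MDA5) read 357, 352, 269 and 313 and Ddx58 (RIG-I) 383, 407, 336 and 347, both lower on both Ath29 arrays. Another Ddx58 probe set gave 104, 85.6, 120 and 124, in the opposite direction between strains. Zbp1, a sensor of Z-form nucleic acid, stayed at the intensity floor of 9.60 on every array in both of its probe sets.

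Usp18, which removes ISG15 from proteins and dampens receptor signalling, was lower in Ath29 mice on both diets. It read 60.2, 75.7, 42.6 and 47.7, with strain differences of -0.50 and -0.67 and diet differences of 0.33 and 0.16. Isg15 itself has no probe set annotated to it alone. Trim25, the ubiquitin ligase of RIG-I signalling, read 532, 716, 553 and 604, higher on Western diet by 0.43 in B6 and 0.13 in Ath29 mice. Its other probe set above the filter read 206, 301, 175 and 207. Between strains on chow the first gave 0.06 and the other -0.23, and on Western diet they gave -0.25 and -0.54.

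Parp9 and Dtx3l form a complex and their genes are neighbours on chromosome 16, yet their order of arrays differed. Parp9 read 164, 167, 134 and 126, lower on both Ath29 arrays, and Dtx3l read 462, 398, 479 and 454, lowest on B6 Western. The other Dtx3l probe set read 283, 326, 328 and 348. Parp14, also on chromosome 16, read 171, 179, 197 and 217 and was higher on both Ath29 arrays.

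Of the 6 measured class I processing genes, 4 were lower on both Ath29 arrays than on both B6 arrays, an order that 20.4% of all genes had. B2m, the light chain of every class I molecule, read 2117, 2764, 1639 and 1827, with strain differences of -0.37 on chow and -0.60 on Western diet. Both Ath29 arrays lay below both B6 arrays, and the other B2m probe set gave -0.83 and -0.62. Psmb8, an inducible catalytic subunit of the immunoproteasome, read 48.4, 54.2, 36.1 and 38.4, with strain differences of -0.42 and -0.50. A further Psmb8 probe set, which missed the filter, read 13.0, 17.4, 11.5 and 39.1, higher in Ath29 mice on Western diet. Tapbp (tapasin) read 1496, 1480, 1130 and 1353, again lower on both Ath29 arrays. So was Tap2, a subunit of the peptide transporter, which read 42.9, 42.2, 38.4 and 31.9, not far above the filter level. Tap1, its partner, read 70.4, 76.9, 83.9 and 70.9 and did not follow. Psmb10 read 40.8, 39.3, 46.8 and 42.3, higher on both Ath29 arrays, and Psmb9 read at most 10.9 and missed the filter.

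The median of the 6 measured class I genes was -0.26 between strains on chow and -0.27 on Western diet. Between diets it was 0.06 in B6 and -0.03 in Ath29 mice. Over all members, 12 of 37 had both Ath29 arrays below both B6 arrays, or 32.4%, where 20.4% of all genes did, and 4 had both above (12.6% of all genes). The 12 were Stat2, Irf1, Ifih1, Ddx58, Usp18, Gbp2, Psmb8, Tap2, Tapbp, B2m, Parp9 and Cmpk2, and the 4 were Oasl2, Psmb10, Parp14 and Samhd1. Ddx58 and Gbp2 among the 12, and Samhd1 among the 4, have another probe set above the filter that does not keep the order. With only probe sets designed for a single transcript the count of 12 was 7, of 26 members left, and the share of all genes was not computed. By diet, 8 members had both Western arrays above both chow arrays (12% of all genes) and 4 had both below (12.8%). Those 8 were Ifit3, Oas1a, Ifi35, Ifi47, Igtp, Trim25, Ifitm3 and Nlrc5. The actin and bioB controls also separated the strains while the Gapdh ratio of 3' to middle signal did not. The Gapdh ratio of 3' to 5' signal did, in the opposite direction to actin. The part of these controls in the members' differences was not tested. By the reference gene table, 0 of the 43 members lie on chromosome 9, the chromosome that the title Ch9 appears to name.

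Of 89 listed genes of the same pathways outside the members, 74 passed. On chow, 0 of them passed 1.5-fold upward in Ath29 mice (7.28% of all genes) and 7 downward (9.62%). On Western diet 6 were higher (5.62%) and 7 lower (7.89%). Between diets, 8 were higher on Western diet (9.94%) and 2 lower (7.13%) in B6 mice, and 3 higher (6.03%) and 1 lower (4.35%) in Ath29 mice. Median differences were -0.06 between strains on chow and -0.09 on Western diet, where all genes had -0.08 and 0.00. Between diets they were 0.09 in B6 and 0.13 in Ath29 mice, where all genes had -0.06 and 0.04. Interferons themselves gave little signal. Ifnb1 read 25.6 to 32.8, and Ifng and both listed Ifna genes with a probe set missed the filter.

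Of the 6 other interferon-stimulated genes with the highest mean signal, 4 (Ifi27l2a, Ifi27, Rtp4 and Trim30a) were highest on B6 Western, beside 26.4% of all genes. Ifi27l2a read 2351, 5303, 3399 and 3876, and Ifi27, a mitochondrial relative, read 2192, 4285, 3052 and 2632. Rtp4 read 645, 909, 622 and 667 and Trim30a 810, 1050, 812 and 959, while Ifitm2 read 3233, 3179, 3176 and 3800. Ifi30, a thiol reductase of the lysosome, read 806, 645, 778 and 705 and was lowest on B6 Western. The 6 genes of highest mean signal were also taken from each of the other lists. B6 Western held the highest value for 6 of the standard proteasome and 4 of class I chains and loading (Canx, H2-K1, Psme1 and H2-D1). It did so for 3 of sensing and adaptors (Tbk1, Mavs and Myd88) and 1 of receptors and signalling (Ifnar2). These counts leave out the dimmer genes of each list, while the 26.4% covers genes of every signal level above the filter, so the shares are not directly comparable. The receptor chain Ifnar2 read 609, 788, 627 and 696, and Jak2 1373, 1195, 1278 and 1330. Socs3, a feedback inhibitor of cytokine receptors, read 418 and 651 in B6 chow and Western and 322 and 845 in Ath29 chow and Western, at least 1.5-fold higher on Western diet in both strains. The adaptor Mavs read 741, 963, 774 and 790.

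The class I heavy chain H2-D1 read 399, 552, 210 and 312, lower on both Ath29 arrays, while H2-K1 read 1125, 1446, 1320 and 1334. H2-D1 and H2-K1 are closely related and part of a family that can share probes. Calreticulin (Calr), a chaperone of class I loading, read 3274, 2854, 2132 and 2452. Among 11 standard proteasome genes, the Ath29 value was the lower one for 9 on chow, where 58.9% of all genes were, and 11 on Western diet, where 49.3% were. Their medians were -0.29 and -0.36, against -0.08 and 0.00 for all genes. Past 1.5-fold were Psma1 and Psmb7 on both diets and Psmb5 on Western diet, named after their values were seen. The class I processing members and the standard proteasome genes thus had medians of the same sign between strains.

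Markers of immune cells are given beside these values. All 8 macrophage markers that passed were higher on Western diet in B6 mice, where 43.4% of all genes were. In Ath29 mice, where 56.2% of all genes were, they were also higher, except that Adgre1 was level (86.1 and 86.2). Their medians were 0.88 in B6 and 0.58 in Ath29 mice, whereas the members' medians were 0.13 and 0.05. Between strains the macrophage median was 0.34 on chow and 0.01 on Western diet. Of 10 T and NK cell markers 3 passed, summing to 190, 216, 202 and 199, and Cd3d, Cd3e, Cd3g and Cd4 missed the filter. Of 4 plasmacytoid dendritic cell markers 0 passed. The B cell and plasma cell markers that passed summed to 103, 106, 263 and 78.5, with Jchain at the floor in B6 chow. The part of these cells in the members' differences was not tested.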

How the data were processed

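The authors deposited 1 table of probe set intensity values on a linear scale for 45101 probe sets on 4 arrays, with values from 0.57 to 13421 and array medians of 27.9 (B6 chow) to 28.8 (Ath29 chow). Per the labels' protocols, biotin-labelled cRNA came from 8 ug total RNA. Which software, background correction and scaling made them is not given in the sources used here. The scale between arrays before deposit stays unknown, and no probe-level files were used here. Array precision is limited by their number, 1 per group.

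Gene names came from the platform's annotation, with symbols updated by gene identifier to GRCm38.p6 (34754 of 34958 single-gene probe sets matched, 932 with several genes and 9211 with none were left unnamed). Intensities were scaled to a common median (factors 0.990 to 1.02), raised to a floor at the 25th percentile (9.60) and taken to log2. Probe sets with a mean above the median of all (27.5) were kept, and a gene was read from its brightest probe set, giving 11716 genes. Intensities printed are scaled. Counts use 1.5-fold, with no test because no group has a replicate. The counting code was tested on simulated arrays with little noise, with 2-fold changes put into genes well above the filter. Changes of 1.5-fold and genes near the filter were not covered. Of the members, 50 of 67 probe sets passed. Python 3.11.15, numpy 2.4.6, pandas 2.3.3 and matplotlib 3.10.9 were used.

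All members could be named. Values were printed for members past 1.5-fold or among the 5 highest or lowest of a difference, for others as examples, and for up to 6 of each pathway list by mean signal. Members and lists were chosen with earlier results of these data known, and the 2 array-order counts (both Ath29 arrays below both B6 arrays, and B6 Western with Ath29 chow above the others) were defined after the values were seen. Lists covered macrophage, T and NK, B and plasma, plasmacytoid dendritic, neutrophil, smooth muscle, endothelial, fibroblast, white and brown fat, heart and skeletal muscle and hepatocyte markers. Alternatives were other scalings, filters, floors, probe set rules and a 2-fold threshold.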

Additional observations from a re-analysis of the deposited data

Results flagged for a closer look

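Rsad2 and Oas2 passed 1.5-fold upward in one group and downward in the other under the same contrast, each on single arrays, and the difference was not tested. Rsad2 was higher in Ath29 than in B6 mice on chow by 0.80 (log2) and lower on Western diet, at -0.70. Between diets Rsad2 was 0.90 in B6 and -0.60 in Ath29 mice. Oas2 was 0.69 between strains on chow and -0.76 on Western diet. Beside them, the summed brown fat signal was 14409 in B6 Western and 11129 in Ath29 chow against 7496 in B6 chow and 8862 in Ath29 Western, and its part was not tested.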

How the results depend on the processing

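Of 143 comparisons of a summary value with an alternative, 123 kept it (counts within 1.5 times, medians within the spread between probe sets of a gene). The alternatives with another floor left every summary unchanged, and no member probe set above the filter lay at the main floor of 9.60. Of the member differences past 1.5-fold, 0 changed sign, and smaller differences were not followed. The median strain difference on Western diet ran from -0.22 to -0.16 and the median diet difference in B6 mice from 0.12 to 0.19. The median strain difference on chow ran from -0.05 to 0.07, so its sign depended on the processing. The median diet difference in Ath29 mice ran from 0.00 to 0.11. For these 2 medians (0.01 and 0.05) the allowed spread of 0.21 and 0.10 was larger than the median itself, so being kept says little. A filter at the 75th percentile left 20 members. Between strains on chow 1 was higher (5.23% of all genes) and 0 lower (7.69%), and on Western diet 3 were lower (6.52%). Between diets 1 was higher in B6 mice (9.09%), and 0 were higher (3.57%) and 1 lower (1.72%) in Ath29 mice. Under that filter 12 members were highest on B6 Western and 3 had B6 Western and Ath29 chow on top. The shares of all genes with these array orders were not computed under that filter. At 2-fold, 0 were higher and 0 lower between strains on chow, and 1 was lower on Western diet. Between diets 0 were higher in B6 mice, and 0 were higher and 0 lower in Ath29 mice. The shares of all genes at 2-fold are given with the counts in the Results. With no filter, 2 members were lower between strains on chow (10% of all genes). Between diets 1 was lower in B6 mice (8.41%) and 2 were higher in Ath29 mice (8.05%). Averaging probe sets gave 2 lower on chow (8.69% of all genes). Using only probe sets designed to bind a single transcript gave 2 lower on chow (11.3%). It also gave 7 with both Ath29 arrays below both B6 arrays, an order not counted over all genes in that setting. That last alternative left 26 members, and the stricter filter likewise reads fewer genes by construction. For B2m and Gbp3 the strain difference on Western diet fell short of 1.5-fold with quantile normalization (-0.47 and -0.57) and with a common 75th percentile (-0.58 each). Differences near the filter level of 27.5 are limited by signal over background, as in Stat2, Irgm1 and Irf7, each with 1 array below it. Tap2 (31.9 to 42.9), Mx1 (35.1 to 43.0), Psmb8 (36.1 to 54.2), Psmb10 (39.3 to 46.8) and Oasl2 (44.0 to 54.9) also read not far above it. No paired analysis was possible because each group has 1 array.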

Other observations

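Across the 10 members with several probe sets above the filter, the probe sets had the same sign for 7 genes between strains on chow, 6 on Western diet, 6 between diets in B6 mice and 7 in Ath29 mice. Differences of probe sets of a gene lay at least 1.5-fold apart for 1, 2, 0 and 1 of them. The widest gaps were for Xaf1, with 1.02 (log2) between strains on Western diet, and for Ifi35, with 0.70 between strains on chow. The median SD between probe sets of a gene was 0.21 between strains on chow and 0.13 on Western diet. The members' median strain by diet difference (the diet difference in Ath29 minus that in B6 mice) was -0.13, where all genes had 0.11.

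Other marker lists were level or differed with array. Smooth muscle markers had median log2 intensities of 11.7 and 11.46 on chow and Western diet in B6 mice, and of 11.5 and 11.63 for the Ath29 arrays. Fibroblast markers had 12.36, 11.85, 12.11 and 12.07 in that order, and endothelial markers 6.69, 6.64, 6.54 and 6.84. Neutrophil markers had 6.14, 5.99, 6.15 and 6.30. Of 7 skeletal muscle markers 2 passed, summing to 208, 409, 40.8 and 42.5.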
